A study of Mus musculus with 4 samples.

Results

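The genes of the condensin subunits were followed in mouse CD4+ (helper) T cells cultured with or without progesterone. They are Smc2, Smc4, Ncapd2, Ncapd3, Ncapg, Ncapg2, Ncaph and Ncaph2, and every probe set that the platform annotation gives to exactly 1 of them was taken, which made 22 probe sets of the 45101 on the array, for 8 of 18194 annotated genes. The labels describe naive CD4+ T cells from spleen and from mesenteric and peripheral lymph nodes, and both groups spent 7 days in culture with 10% serum and 2.5 ug/ml concanavalin A, a lectin that activates T cells. The control group (2 arrays) received human TGFb1, a cytokine that steers naive cells towards a regulatory state, at 1 ng/ml, and the other group (2 arrays) received the same TGFb1 and 2000 ng/ml of the steroid hormone progesterone. The design asks how progesterone alters expression in cells that also receive TGFb1. No strain, sex, age, vehicle or number of animals is given in the sources used here, nor whether replicates are separate cultures, so the spread behind each p-value is the spread between arrays and may be technical. Single values are quantile-normalised signals (arrays set to 1 shared distribution). Changes are differences in log2(signal + 16), progesterone minus TGFb1 alone, with the standard error of a limma fit to all tested probe sets, n = 2 per group and p-values adjusted by Benjamini-Hochberg over all of them. Adding 16 makes the changes of dim probe sets smaller than their signals alone would give. In RNA from a whole culture, fewer cells of a type and less RNA per cell cannot be told apart. Progesterone and sex cannot either: by the sex-linked genes given near the end, TGFb1 arrays read as male and progesterone arrays as female.

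Condensins are ring-shaped ATPases that extrude loops of DNA and compact chromosomes for mitosis. Both complexes share the SMC ATPase pair encoded by Smc2 and Smc4. Condensin I adds the kleisin of Ncaph, which closes the ring, and the HEAT repeat subunits of Ncapd2 and Ncapg. Condensin II adds their counterparts, the kleisin of Ncaph2 and the HEAT repeat subunits of Ncapd3 and Ncapg2. Condensin I reaches chromosomes after the nuclear envelope breaks down, while condensin II is nuclear through interphase. In T cells, mutation of the condensin II kleisin is known to impair thymocyte development, and condensin has been tied to chromatin compaction in quiescent T cells. The genes lie on chromosome 4 (Smc2), 3 (Smc4), 6 (Ncapd2), 5 (Ncapg), 2 (Ncaph), 9 (Ncapd3), 12 (Ncapg2) and 15 (Ncaph2) in the RefSeq table of assembly GRCm38.p6.

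Condensin transcripts were lower with progesterone, but not for every subunit. Smc2, all 3 genes of condensin I and Ncapg2 of condensin II were 3.49-fold to 5.62-fold lower by the brightest probe set of each gene. Ncaph2 was 1.80-fold lower, and Smc4 and Ncapd3 did not pass the test. Of the 22 probe sets, 21 had a mean signal above the median of all probe sets and were tested. Of these 11 fell and none rose (adjusted p under 0.05), against a background in which 6.14% of all 22518 tested probe sets were called and 3.74% were called lower. The 11 calls came from 6 of the 8 genes. With no filter on level, 7 of all 22 were called, all lower, from the same genes except Ncaph2. That fit called 539 of all 45037 probe sets, 360 of them lower. The median change over the 21 was -1.05, beside 0.03 over all probe sets tested. On 16 of the 21, both TGFb1 arrays lay above both progesterone arrays, a pattern that 24.1% of all tested probe sets showed.

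**Figure D1:**
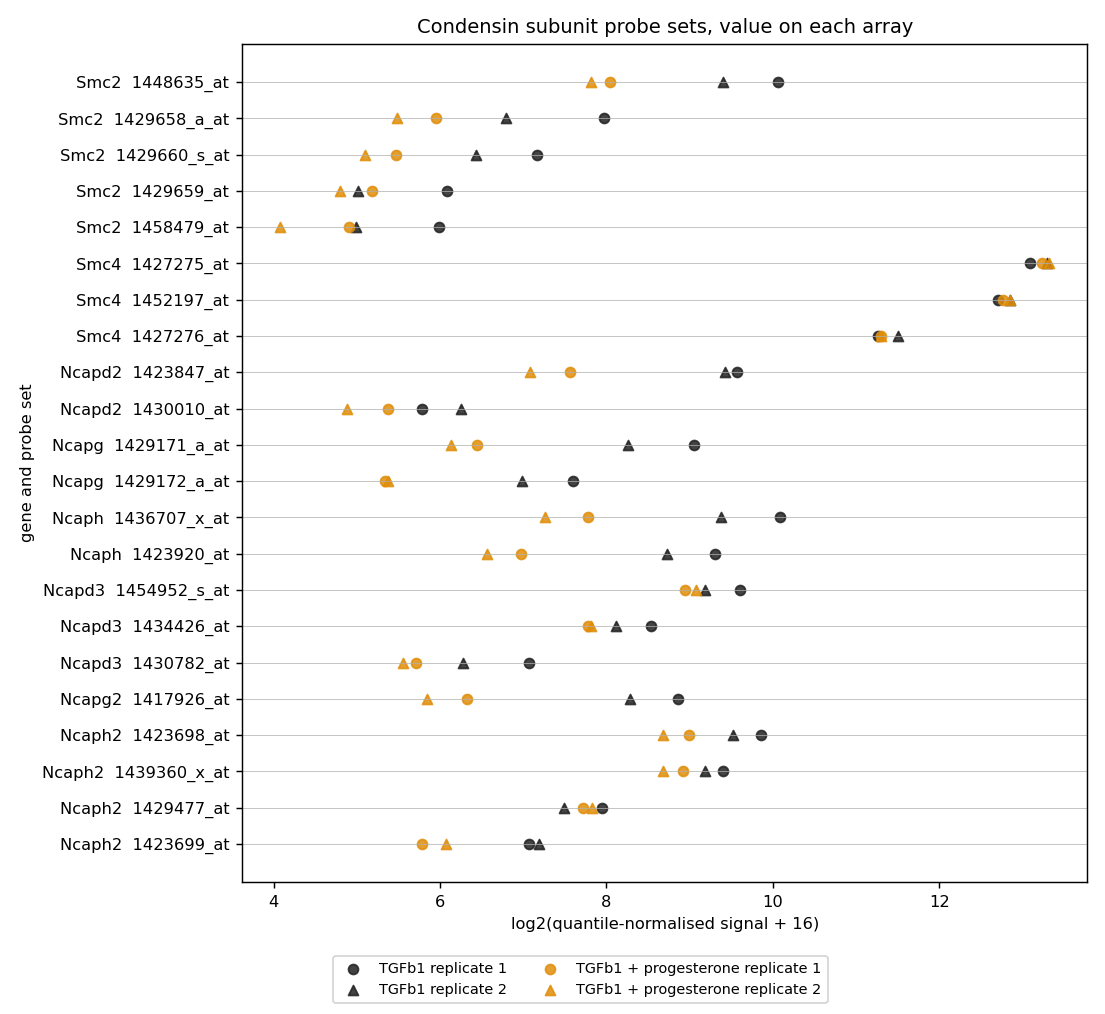
Value of each of the 22 condensin probe sets (rows) on each of the 4 arrays, as log2(quantile-normalised signal + 16), with TGFb1 in black, TGFb1 plus progesterone in orange, circles for replicate 1 and triangles for replicate 2. Positions can be compared within a row and not between rows; orange and black are well apart for Ncapg, Ncaph and Ncapg2 and overlap for the 3 rows of Smc4.

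The DNA just before the start of 4 of these genes, which form 2 matched pairs, is shown. Ncapd2 and its counterpart Ncapd3, at -2.18 and -0.38 by their brightest probe sets, form a further pair that is not shown. Ncapg and its condensin II counterpart Ncapg2 gave changes of -2.37 and -2.49 by their brightest probe sets, and Ncaph and its counterpart Ncaph2 gave -2.22 and -0.85. Each run is the 150 bases ending at the base before the start in RefSeq, build GRCm38.p6, written from 5′ to 3′ along the gene. Capitals mark TTTGAA and TTCGAA, forms of the cell cycle homology region that many genes of the G2 and M phases carry. CCAAT and the E2F cores TTGGCGC and TTCCCGC were searched as well, all on both strands, and none of them lies in these 4 runs; the run of Ncaph holds no match at all.
Ncapg, chr5:45669775-45669924, plus strand: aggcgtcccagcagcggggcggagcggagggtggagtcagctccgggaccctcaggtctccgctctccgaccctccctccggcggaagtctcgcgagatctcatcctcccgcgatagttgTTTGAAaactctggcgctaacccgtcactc
Ncapg2, chr12:116405286-116405435, plus strand: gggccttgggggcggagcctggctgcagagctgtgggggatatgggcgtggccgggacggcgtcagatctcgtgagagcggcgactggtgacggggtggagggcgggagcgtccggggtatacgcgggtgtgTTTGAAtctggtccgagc
Ncaph, chr2:127133955-127134104, minus strand: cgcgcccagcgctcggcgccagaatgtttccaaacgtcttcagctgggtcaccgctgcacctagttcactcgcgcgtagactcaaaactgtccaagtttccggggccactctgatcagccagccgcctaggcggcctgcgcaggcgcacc
Ncaph2, chr15:89355569-89355718, plus strand: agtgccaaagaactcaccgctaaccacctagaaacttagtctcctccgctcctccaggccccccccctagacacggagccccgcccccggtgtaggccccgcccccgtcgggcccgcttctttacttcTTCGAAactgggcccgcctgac

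In the longer window from 250 bases before the start to 50 after it, 7 of the 8 genes had an entry. TTTGAA lay 30 to 25 bases before the start in Ncapg and 18 to 13 before it in Ncapg2, on the strand of the gene. It also lay in Ncapd2, and on the other strand in Smc2 and at the second listed start of Ncapd3. Ncaph had no TTTGAA in its window, and Ncaph2 had the variant TTCGAA 22 to 17 bases before the start. Among all 32851 windows of this table, TTTGAA was present in 17.9% and TTCGAA in 1.56%. CCAAT was found in Smc2, Ncapd2 and Ncapg and in 37.4% of all windows. TTGGCGC was found in Ncapd2, Ncaph and Ncapd3 (2.45% of all windows), and TTCCCGC in Ncapg and Ncapg2 (4.6%). TTTGAA and TTGGCGC were thus present both in genes with a called fall and in Ncapd3, which had none. A match to these letters is not a measured binding site.

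Of the SMC pair shared by both complexes, Smc2 had a called fall and Smc4 had none. The brightest Smc2 probe set, 1448635_at, read 1055 and 657.7 with TGFb1 alone and 247.6 and 208.6 with progesterone. The lowest TGFb1 value lay 2.66-fold above the highest progesterone value. The change was -1.80 ± 0.21 (SE, n = 2 per group; limma adjusted p = 0.00314). Its rank was 196 from the lowest among the 22518 changes. Probe set 1429658_a_at of Smc2 read 234.3 and 94.41 without progesterone and 45.78 and 28.66 with it. Here TGFb1 replicate 1 was far above replicate 2, and the groups still did not overlap, with a change of -1.66 ± 0.37 (adjusted p = 0.0376). For 1429660_s_at the values were 127.9 and 70.64 against 28.25 and 18.36, again without overlap, with a change of -1.52 ± 0.29 (adjusted p = 0.0217). Its progesterone mean lay under the level filter of 24.76, so it was tested only through its TGFb1 values. With no filter neither of these 2 dimmer probe sets passed (adjusted p = 0.139 and 0.102), while 1448635_at did (adjusted p = 0.0223). At 51.78 and 16.24 against 20.28 and 11.75, the Smc2 probe set 1429659_at overlapped between groups and gave -0.56 (95% interval -1.45 to 0.33, adjusted p = 0.451). This probe set too was tested only through its TGFb1 values. The last, 1458479_at, lay under the level filter at 47.47 and 15.63 against 13.87 and 0.913 and was not tested with the others; its change was -0.995.

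Smc4 encodes the ATPase partner of the Smc2 product. Signals of 1427275_at were 8732 and 10080 with TGFb1 alone and 9666 and 10190 with progesterone. The groups overlapped, and the change was 0.08 (95% interval -0.09 to 0.26, limma adjusted p = 0.581). Probe set 1452197_at read 6685 and 7391 against 6970 and 7391, a change of 0.03 (95% interval -0.13 to 0.19, adjusted p = 0.849). Probe set 1427276_at of Smc4 read 2442 and 2900 against 2513 and 2498, a change of -0.09 (95% interval -0.31 to 0.14, adjusted p = 0.651). Under this normalisation the intervals reach no lower than -0.31. Both the sign and the calls moved with the scaling. Left as deposited, the 3 changes were -0.13, -0.26 and -0.53, where the median of all tested probe sets was -0.16, and none passed. After centring arrays on their medians they were -0.26, -0.39 and -0.65, beside a median of -0.28, and the last 2 passed as falls (adjusted p = 0.032 and 0.00751). With that centring 5258 of all 22518 tested probe sets were called lower. Within each array, the log2 ratio of Smc2 to Smc4 (brightest probe sets) was -3.03 and -3.91 with TGFb1 and -5.20 and -5.51 with progesterone. The ratio was lower in both progesterone arrays, by 1.89 on average. An exact permutation test, two-sided, gave p = 0.333, the smallest that it can give with 4 arrays. The ratio was chosen after its values were seen. In the RefSeq tables the Smc4 gene also holds the microRNA genes Mir15b and Mir16-2, whose mature products were not analysed here.

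All 3 genes particular to condensin I fell, with 5 of their 6 probe sets called. For Ncapd2, whose product is a HEAT repeat subunit, probe set 1423847_at read 745.5 and 669.9 with TGFb1 alone and 172.3 and 119.1 with progesterone. The TGFb1 arrays were close to each other and at least 3.89-fold above either progesterone array. The change was -2.18 ± 0.18 (adjusted p = 0.00127), a 4.53-fold fall. The dim second probe set of Ncapd2, 1430010_at, read 39.15 and 59.83 against 25.37 and 13.37. It did not overlap between groups either, but its change of -0.89 ± 0.29 did not pass (adjusted p = 0.127). Its progesterone mean lay under the level filter of 24.76, so it was tested only through its TGFb1 values.

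Ncapg encodes the other HEAT repeat subunit of condensin I. Its probe set 1429171_a_at read 515.5 and 289.9 with TGFb1 and 71.34 and 53.94 with progesterone, and 1429172_a_at read 177.3 and 110.9 against 24.38 and 25.52. In both, TGFb1 replicate 1 was the highest array and the groups were over 4-fold apart at their nearest values (4.06 and 4.35). The changes were -2.37 ± 0.26 (adjusted p = 0.00262) and -1.94 ± 0.24 (adjusted p = 0.00394). The Ncaph kleisin gene gave near-identical changes from its 2 probe sets. Signals of 1436707_x_at were 1076 and 646.7 against 202.9 and 136.7, and those of 1423920_at were 618.4 and 406.4 against 109.2 and 78.68. No progesterone array came within 3.19-fold of a TGFb1 array in the former or 3.72-fold in the latter. The changes were -2.22 ± 0.25 (adjusted p = 0.00285) and -2.25 ± 0.22 (adjusted p = 0.00208). The suffix _x_at marks a probe set some of whose probes may also match other transcripts, and here the 2 probe sets differed by less than their errors.

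The 3 genes particular to condensin II were less uniform, with 3 of 8 probe sets called. Ncapg2, the counterpart of Ncapg, had the lowest change of the 21 tested condensin probe sets with 16 added before the logarithm. With 64 added, Ncaph 1436707_x_at (-1.96) and Ncapd2 1423847_at (-1.889) were lower than Ncapg2 (-1.886). Its only probe set, 1417926_at, read 447.1 and 296.3 with TGFb1 and 64.04 and 41.26 with progesterone. The nearest arrays of the 2 groups were 4.63-fold apart. The change of -2.49 ± 0.24 (adjusted p = 0.00201) was a 5.62-fold fall and ranked 67 from the lowest among all tested probe sets.

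Ncaph2, the kleisin gene of condensin II, gave values that differed by probe set. Probe set 1423698_at read 908.4 and 717.5 with TGFb1 and 492.6 and 395.5 with progesterone. The groups did not overlap, and the fall of 1.80-fold (-0.85 ± 0.16, adjusted p = 0.0195) passed. The dimmer 1423699_at read 117.9 and 130.2 against 39.17 and 51.31 and changed by -1.199 (SE 0.19, adjusted p = 0.0117). With no filter on level neither passed (adjusted p = 0.0701 and 0.0588). At 661.8 and 565.1 against 466.6 and 393.3, 1439360_x_at was lower in both progesterone arrays but did not pass (-0.50 ± 0.14, adjusted p = 0.0827). It passed as deposited (-0.83, adjusted p = 0.0342) and with median centring (-0.96, adjusted p = 0.00463), and was at -0.61 without TGFb1 replicate 2. The as-deposited fit took the spread from the intensity trend alone, not from each probe set's own arrays. The median-centred fit called 5258 of all 22518 tested probe sets lower. Probe set 1429477_at read 231.3 and 163.2 against 193.8 and 210.2. Its groups overlapped, with a change of 0.05 (95% interval -0.38 to 0.47, adjusted p = 0.91), and its sign turned to -0.19 with the values as deposited. The 4 probe sets thus spanned changes from -1.199 to 0.05. Which transcripts or exons each one reads was not analysed here.

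Ncapd3, the counterpart of Ncapd2, had 3 probe sets, and none was called after quantile normalisation. They read 760.6 and 567.3 against 477.4 and 523.5 (1454952_s_at), 354.4 and 261.8 against 202.8 and 208.0 (1434426_at), and 118.8 and 61.66 against 36.26 and 31.01 (1430782_at). In each, both TGFb1 arrays were above both progesterone arrays, by as little as 1.08-fold at the nearest values of the first. The changes were -0.38 (95% interval -0.74 to -0.03, adjusted p = 0.202), -0.54 (-0.92 to -0.15, adjusted p = 0.118) and -1.05 (-1.70 to -0.39, adjusted p = 0.076). Without TGFb1 replicate 2, which was the lower control array for all 3, the changes were -0.59, -0.74 and -1.41. Without TGFb1 replicate 1 they were -0.17, -0.32 and -0.62. Of the alternative settings in which each was tested, they were called in 2 of 14, 4 of 13 and 4 of 12. With the values as deposited 1434426_at and 1430782_at passed, at -0.80 and -1.05 (adjusted p = 0.0396 and 0.00393). These p-values take the spread from the intensity trend alone, not from each probe set's own arrays. With median centring all 3 passed, at -0.85, -0.92 and -1.17 (adjusted p = 0.00831, 0.00701 and 0.0129), where the median of all tested probe sets was -0.28. That fit called 5258 of all 22518 tested probe sets lower, beside 842 in the fit reported.

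**Figure D2:**
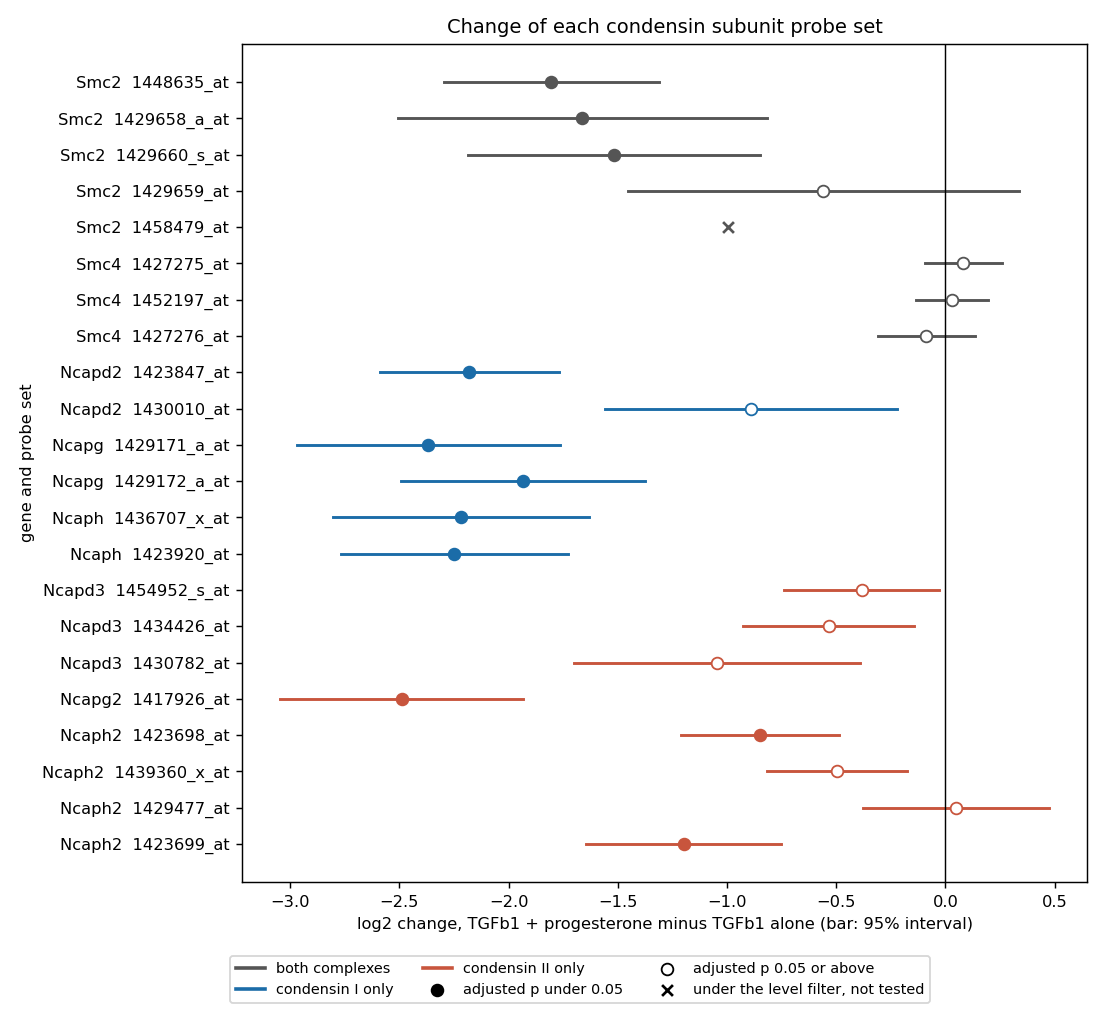
Log2 change of each condensin probe set, TGFb1 plus progesterone minus TGFb1 alone, with its 95% interval from the limma fit; filled points had an adjusted p under 0.05, open points did not, and the cross marks the probe set that was not tested. The condensin I genes (blue) lie near -2 except for 1 dim probe set, Smc4 (lower grey rows) lies at 0, and the condensin II genes (red) run from -2.49 to 0.05.

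Set side by side, the probe sets of condensin I genes had a median change of -2.20 (6 tested) and those of condensin II genes one of -0.69 (8 tested). Probe sets of 1 gene share their target gene and samples and are not independent replicates. The kleisins allow a comparison inside each array. The log2 ratio of Ncaph to Ncaph2, by their brightest probe sets, was 0.24 and -0.15 with TGFb1 (mean 0.05, SD 0.27, n = 2). It was -1.22 and -1.43 with progesterone (mean -1.32, SD 0.15, n = 2). Both progesterone arrays lay below both TGFb1 arrays, with a mean difference of -1.37. The exact permutation test, two-sided, gave p = 0.333, which is the smallest that this test can give with 4 arrays. For the G subunits the changes were -2.49 (Ncapg2) and -2.37 (Ncapg), and their difference was not tested. For Ncapd2 and Ncapd3 they were -2.18 and -0.38 by the brightest probe sets, and that difference was not tested either.

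Replicates within a group also differed for these genes. TGFb1 replicate 1 was above replicate 2 in 17 of the 22 probe sets, with a median difference of 0.46 over the 21 tested, beside -0.01 over all tested probe sets. Progesterone replicate 1 was above replicate 2 in 15 of 22, with a median difference of 0.24, beside 0 over all. The calls moved with the arrays used. Dropping either progesterone array leaves 1 array in that group. Fewer condensin probe sets were then called, and fewer of all tested probe sets as well. With replicate 1 dropped, Smc2 1448635_at changed by -1.94 and Ncapg2 1417926_at by -2.78. With replicate 2 dropped, the same probe sets changed by -1.71 and -2.295. The probe sets 1448635_at (Smc2), 1423847_at (Ncapd2), both of Ncapg, both of Ncaph and that of Ncapg2 were called lower under every alternative in which they were tested. The other probe sets of Smc2 and Ncaph2 were not: leaving out either progesterone array lost 1429658_a_at, 1429660_s_at and 1423698_at, leaving out TGFb1 replicate 1 lost the first pair, and leaving out progesterone replicate 1 also lost 1423699_at.

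**Figure D3:**
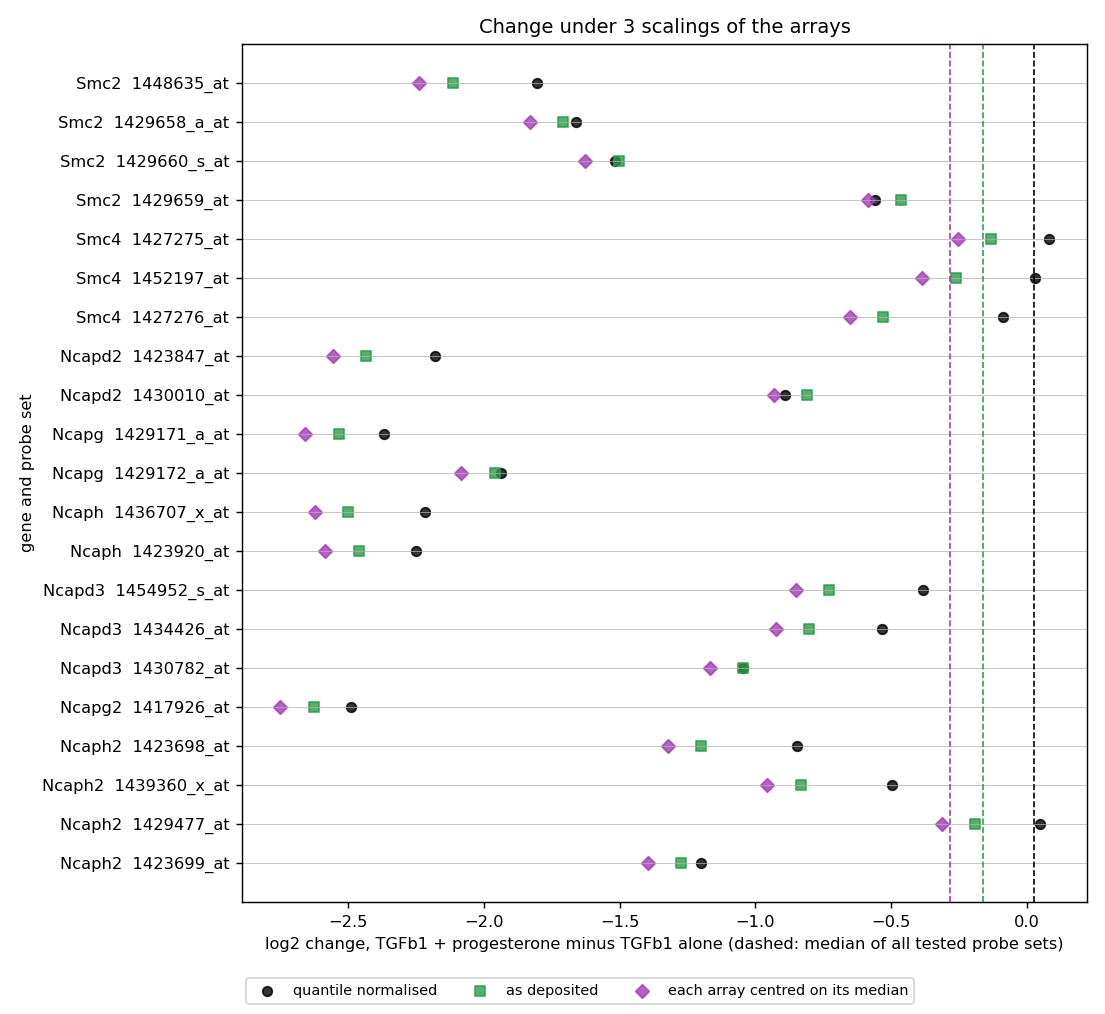
Log2 change of each tested condensin probe set after quantile normalisation (black), as deposited (green) and after median centring of each array (purple); dashed lines give the median change of all tested probe sets, 0.03, -0.16 and -0.28. The strong falls keep their place under all 3, while Smc4 and the Ncaph2 probe set 1429477_at move from about 0 to below 0 with the dashed lines.

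The regulators of condensin and its partners on chromosomes were examined as a list chosen by role, with each gene read by its brightest probe set. The list had 15 genes, of which 13 were tested. Of these 9 fell, none rose and the median was -2.58, where 4.79% of all 10512 genes were called lower, 2.69% were called higher and the median of all was 0.02. Mki67, whose product coats mitotic chromosomes, read 3131 and 1911 as deposited with TGFb1 alone and 430.5 and 192.6 with progesterone, a change of -2.66 ± 0.26 (adjusted p = 0.00208). Top2a, the topoisomerase that works beside condensin on mitotic chromosomes, changed by -2.61 ± 0.27 (adjusted p = 0.00215). Cdk1, the mitotic kinase that phosphorylates condensin, changed by -2.58 ± 0.27. Its cyclin partner genes Ccna2 (-2.85 ± 0.30) and Ccnb2 (-2.75 ± 0.31) and the kinase gene Aurkb (-2.66 ± 0.28), whose product helps load condensin I, fell as well. In each of these 6 genes both TGFb1 arrays were above both progesterone arrays. Plk1, Kif4 and Ttk, which act in mitosis, made up the 9 and were named after their values were seen. The 4 others did not pass. Top2b, the paralogue of Top2a that is also present outside the cell cycle, was at -0.14 (adjusted p = 0.468). Mcph1, an inhibitor of condensin II, was at -0.27 (adjusted p = 0.425), Csnk2a1, a kinase subunit gene whose product restrains condensin I in interphase, at -0.05 (adjusted p = 0.898), and Akap8, an anchoring protein gene linked to condensin recruitment, at 0.41 (adjusted p = 0.121). Their tested probe sets ran from -0.89 to -0.05 for Csnk2a1, from -0.27 to -0.07 for Mcph1, from -0.27 to -0.14 for Top2b and from 0.22 to 0.41 for Akap8.

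The related SMC complexes were counted in the same way. Of 13 genes of cohesin, which holds sister chromatids together and forms interphase loops, and of its loaders and modifiers, 2 fell and none rose (median -0.06). They were Esco2, a cohesin acetyltransferase of S phase, at -3.04 ± 0.45 (adjusted p = 0.00818), and the cohesin kleisin gene Rad21, at -0.44 ± 0.09 (adjusted p = 0.0261), both named after their values were seen. The Rad21 call came from its brightest probe set, and others ran from -0.74 to -0.01. Probe sets of Smc3 ran from -0.60 to -0.11 and those of Wapl from 0.09 to 0.60. None of 8 genes of the SMC5/6 complex, which acts in DNA repair, passed the test (median -0.26). Neither did Smchd1 (-0.19, adjusted p = 0.287, with another probe set at -0.72) or the repair gene Rad50 (-0.27, adjusted p = 0.336). Of the SMC5/6 genes Nsmce1 was nearest the threshold (-0.495, adjusted p = 0.0502), and the probe sets of Smc6 ran from 0.02 to 1.15. Whether condensin differs from these relatives was not tested.

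**Figure D4:**
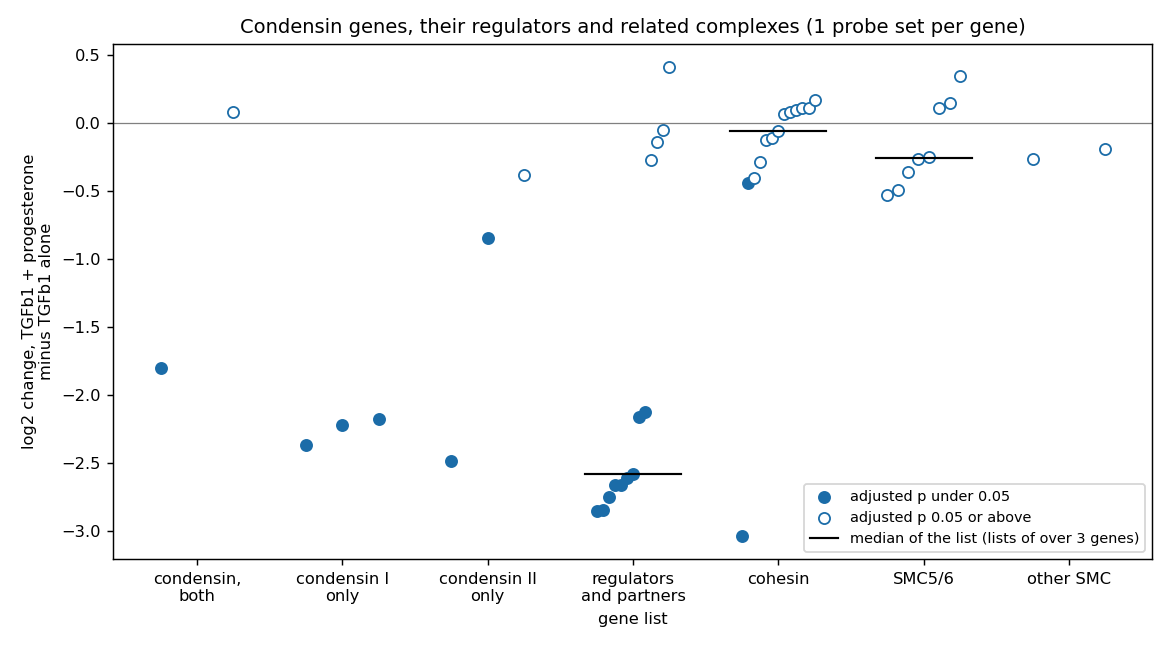
Log2 change of each gene, read by its brightest probe set, for condensin genes by complex, for the regulators and partners and for the cohesin, SMC5/6 and other SMC lists; filled points had an adjusted p under 0.05, and lines mark medians of lists of over 3 genes. Most regulators and the condensin I genes lie below -2, while all cohesin and SMC5/6 genes but Esco2 lie nearer 0, between -0.53 and 0.34.

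The mean profile of the brightest probe sets of Smc2, Smc4, Ncapd2, Ncapg and Ncaph, each centred on its own mean, was 1.06 and 0.64 with TGFb1 alone and -0.70 and -0.996 with progesterone. Smc4, with a change of 0.08, draws this mean towards 0, as the others changed by -1.80 to -2.37. Condensin genes and all listed genes, such as Top2a and Cdk1, were left out of the candidates. Among 19193 probe sets of other single genes, the nearest to this mean by Euclidean distance over the 4 arrays was that of Hmgcs1 (distance 0.0256, change -1.72 ± 0.16), an enzyme of cholesterol synthesis. Next were the cell cycle inhibitor gene Cdkn2c (distance 0.0906, change -1.66), the nuclear envelope gene Nrm (0.0998, -1.76), the mitotic spindle gene Dlgap5 (0.104, -1.74) and the replication fork gene Cdc45 (0.122, -1.67). With 4 arrays such likeness is a description only.

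Other properties of the arrays moved with the groups. Xist, the RNA of the inactive X chromosome of female cells, read 9.52 and 9.70 as deposited with TGFb1 alone and 1390 and 825.4 with progesterone. The Y-linked gene Eif2s3y had 689.0 and 727.5 against 4.25 and 0.492. The TGFb1 arrays thus read as male cells and the progesterone arrays as female cells, although the labels give no sex. Progesterone and sex, with whatever else differed along with sex, cannot be told apart in any result here. The T cell genes Cd3d, Cd3e, Cd3g and Cd4 summed to 17290 to 18400 against 12490 to 15800 as deposited, and none of the 4 passed the test. These sums also carry the brightness of each array: after normalisation Cd3d, Cd3e and Cd3g were at 0.05, 0.11 and 0.09 and Cd4 at -0.34. The 4 myeloid markers (Lyz2, Cd14, Adgre1, Csf1r) summed to 138.9 to 275.3 with TGFb1 and 733.6 to 803.1 with progesterone, and of the 3 tested only Lyz2 passed, at 2.69 ± 0.39 (adjusted p = 0.00716). The B cell markers Cd79a and Ms4a1 summed to 22.56 to 34.69 against 44.37 to 97.22. Cd79a did not pass (0.71, limma adjusted p = 0.267), and Ms4a1 lay under the level filter and was not tested. Cd8a and Cd8b1 summed to 148.7 to 173.8 against 91.18 to 165.8 (at -0.16 and -0.31 after normalisation). The mast cell markers Cpa3, Mcpt4 and Fcer1a summed to 915.6 to 1480 against 856.3 to 861.8 (Cpa3 at -0.33 and Fcer1a at 0.49 after normalisation). The natural killer marker Ncr1 read 3.998 to 11.09 against 15.61 to 20.49, and the erythroid marker Alas2 was under 10 on all 4 arrays. Mcpt4, Ncr1 and Alas2 lay under the level filter and were not tested. No marker was listed at exactly 0. The part of these differences in the condensin result was not tested.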

How the data were processed

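RNA of 4 samples was measured on expression arrays, 1 array per sample. Labelling used biotin and started from 2 ug of RNA, per the labels' protocols. The deposited table holds 1 linear intensity (signal) per probe set and array; the submitters' processing notes name MAS5. Its version, the scaling target and the genome build are not given in the sources used here. Groups and replicate numbers came from the sample titles.

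Trimmed means (2% removed at both ends) ran from 108.3 to 155.4, a ratio of 1.43, so arrays were quantile normalised, then taken as log2(signal + 16). After dropping 64 control probe sets, those with a mean above the median of all (24.76) were kept, 22518 in number. Over these, arrays of a group correlated at 0.98 and 0.983, and arrays of different groups at 0.943 to 0.962. Quantile normalisation gives all arrays 1 distribution, so a shift of most genes in 1 direction would be removed. No detection call was used, and with 4 arrays, which leave 2 residual degrees of freedom, the precision is low.

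Differences were fitted with limma 3.58.1 in R 4.3.3 (lmFit, eBayes with an intensity trend, prior degrees of freedom 5.89) across all kept probe sets, without covariates, with Benjamini-Hochberg adjustment and a threshold of 0.05. Every adjusted p comes from this test, refitted for each alternative. With the values as deposited the prior degrees of freedom were infinite. The p-values of that fit thus rest on the intensity trend and not on each probe set's own spread. The fit step alone was run on simulated log2 values with known changes and independent noise. Normalisation and the level filter were not part of that simulation, so it does not bear on them. Gene names came from the platform annotation: of 45037 probe sets 34945 had 1 gene, 932 several and 9160 none, and 34741 were matched by Entrez identifier to RefSeq (GRCm38.p6), from which promoter sequences also came.

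All 22 member probe sets are reported. Of the list of regulators, partners and relatives, the rule named the 6 with the largest moderated statistic, and others named were chosen after their values were seen; the 5 nearest profiles were named by distance. The members and lists were chosen with earlier results of these data known. Alternatives were values as deposited, median centring, pseudocounts of 0 (values under 1 set to 1) and 64, no filter, the upper 25% by mean, no trend, a robust variance model, 1 probe set per gene, the replicate number as a block and leaving out each array.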

Additional observations from a re-analysis of the deposited data

How the results depend on the processing

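No condensin probe set was called higher under any alternative. The called number of condensin probe sets was 11 of 21 in the fit reported. It was 18 with each array centred on its median, 7 of 22 with no filter, 7 of 14 in the upper 25% by mean and 6 of 8 with 1 probe set per gene, where fewer were tested. Leaving out each array gave 7 to 15. Over all probe sets the 1383 calls became 5540 with median centring, 539 with no filter, 481 with no intensity trend, 879 with 1 probe set per gene and 3122 with the replicate block, and 335 to 1659 when an array was left out. The share of calls that were higher also moved: 541 higher and 842 lower in the fit reported, 290 and 1314 as deposited, 282 and 5258 with median centring. The 11 called regulators, partners and relatives became 23 with median centring and 7 with no intensity trend, and 10 to 13 when an array was left out. The log2 ratio of Ncaph to Ncaph2 stayed lower with progesterone, from -1.55 to -1.15 when an array was left out. The cause of these moves was not tested.

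Of the member probe sets, the 3 of Smc4 and 1429477_at of Ncaph2 changed sign under some alternative. Smc4 1427275_at was at -0.13 as deposited, at -0.26 with median centring and at -0.026 to 0.186 when an array was left out, below 0 without TGFb1 replicate 1. Smc4 1452197_at was at -0.26, -0.39 and -0.0473 to 0.107 in the same order, below 0 without TGFb1 replicate 1 and without progesterone replicate 2 (-0.02). Smc4 1427276_at was at -0.206 to 0.0332 when an array was left out, above 0 without TGFb1 replicate 2. Ncaph2 1429477_at was at -0.19 as deposited, at -0.31 with median centring and at -0.18 to 0.274 when an array was left out, below 0 without TGFb1 replicate 2 and without progesterone replicate 2 (-0.006). Of the other member values, 229 kept their direction and side of the threshold, 16 came to pass and 16 no longer passed. The labels do not say that equal replicate numbers share a source; deviations of equally numbered arrays correlated at 0.17 across probe sets. With the replicate block 14 condensin probe sets were called, among them Ncapd3 1434426_at and 1430782_at (adjusted p = 0.0262 and 0.00927) and Ncaph2 1439360_x_at (0.00707). With no intensity trend the calls of Smc2 1429658_a_at and 1429660_s_at and of Ncaph2 1423698_at were lost. Fits on 3 arrays take the spread of the single remaining array from the other group.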
